A study of Rattus norvegicus with 20 samples.

Results

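This account covers 8 genes of the rat dorsal root ganglion (DRG), the cluster of sensory nerve cell bodies beside the spinal cord. They are 7 neuropeptide genes, *Gal*, *Npy*, *Vip*, *Nts*, *Adcyap1*, *Vgf* and *Cck*, and *Cckbr*, a receptor for cholecystokinin. They were picked by symbol from 39747 genes in the count table, with earlier results of these data known, and no threshold on the values was used. Poly-A RNA sequencing was available for 20 DRG libraries from 14 female Sprague-Dawley rats, 8 to 10 weeks old on entry to the study. Rats were fed for 4 weeks before surgery with a soy oil diet on the AIN-93G formula (SOD) or a matched diet whose fat was mostly fish oil, rich in DHA and EPA (FOD). Chronic constriction injury (CCI) consisted of loose gut ligatures around the left sciatic nerve, and the control operation (CT) exposed that nerve without tying it. The groups were SOD-CT (n = 4), SOD-CCI (n = 3), FOD-CT (n = 3) and FOD-CCI (n = 4), all left DRG, together with the contralateral right DRG of 3 SOD-CCI rats and of 3 FOD-CCI rats. Ganglia were taken after 1 week of recovery by the labels and the study's text, although the design note has the diets continue for 4 weeks after surgery. Which lumbar ganglia were pooled was not given in the sources used here, and the sciatic ligature reaches only part of the neurons of a ganglion.

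Neuropeptides are cut from larger precursors, stored in dense core vesicles and released to act on G protein-coupled receptors. In uninjured sensory ganglia *Gal*, *Npy* and *Vip* are known to be low, and damage to the peripheral axon is known to raise them together with *Atf3*, a transcription factor of injured neurons. *Adcyap1* (PACAP) belongs to the same peptide family as *Vip*, and *Vgf* encodes a granin-like precursor cut into several peptides. *Nts* encodes neurotensin and *Cck* cholecystokinin.

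Several of these genes are known targets of cAMP signalling, so the 250 bases before the transcription start were read for the cAMP response element (CRE) and its relative AP-1. RefSeq promoters (assembly GRCr8) were at hand for 7 of the 8 genes. Letters searched on both strands were TGACGTCA (CRE), TGACG (CRE half-site, also part of the full CRE) and TGANTCA (AP-1), and TATAAA was searched on the gene's strand. Among 33469 RefSeq promoters of the same length, 1.59% held the full CRE, 18.2% the half-site, 6.34% the AP-1 letters and 8.06% TATAAA. The 4 promoters with a CRE, half-site or AP-1 match are shown, 5′ to 3′ on the gene's strand, with those matches in capitals. They lie at chr12:25277021-25277270 (*Vgf*, minus strand), chr1:44470230-44470479 (*Vip*, plus strand), chr1:210084573-210084822 (*Gal*, minus strand) and chr7:39460889-39461138 (*Nts*, minus strand).
Vgf: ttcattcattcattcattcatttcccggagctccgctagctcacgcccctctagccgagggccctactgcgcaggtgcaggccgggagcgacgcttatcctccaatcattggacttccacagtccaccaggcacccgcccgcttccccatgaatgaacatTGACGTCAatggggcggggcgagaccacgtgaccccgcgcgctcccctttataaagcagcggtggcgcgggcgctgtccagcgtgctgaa
Vip: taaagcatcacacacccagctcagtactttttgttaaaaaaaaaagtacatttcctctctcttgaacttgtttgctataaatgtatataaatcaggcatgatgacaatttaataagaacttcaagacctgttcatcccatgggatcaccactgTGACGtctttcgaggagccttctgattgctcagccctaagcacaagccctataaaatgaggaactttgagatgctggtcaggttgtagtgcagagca
Gal: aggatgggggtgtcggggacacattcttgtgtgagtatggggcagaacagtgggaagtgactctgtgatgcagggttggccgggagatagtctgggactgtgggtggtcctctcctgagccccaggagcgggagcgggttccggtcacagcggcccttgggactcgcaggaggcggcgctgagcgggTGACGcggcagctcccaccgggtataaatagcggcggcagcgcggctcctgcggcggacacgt
Nts: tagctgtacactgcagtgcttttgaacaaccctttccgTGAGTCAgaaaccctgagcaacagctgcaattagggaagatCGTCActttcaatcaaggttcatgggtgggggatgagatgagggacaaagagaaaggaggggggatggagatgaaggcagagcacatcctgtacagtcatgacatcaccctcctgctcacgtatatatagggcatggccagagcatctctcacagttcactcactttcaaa
The full CRE of *Vgf* lay 90 to 83 bases before the start. The half-sites lay 97 to 93 bases before the start in *Vip*, 63 to 59 in *Gal* and 171 to 167 in *Nts*, which also had AP-1 letters at 212 to 206. TATAAA lay 41 to 36 bases before the start in *Gal* and *Vgf*, at 48 to 43, 165 to 160 and 175 to 170 in *Vip*, and at 248 to 243 in *Adcyap1*. No CRE, half-site or AP-1 letters were found in the windows of *Npy*, *Adcyap1* and *Cckbr*. These are matches of letters, and no binding was measured.

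Totals ranged from 22547190 to 54437581 counts per library (median 29051399), so 3 counts, the most that a count of 0 allows, corresponded to 0.0551 to 0.133 CPM (counts scaled to 1000000 per library). All 14 sensory neuron markers were expressed, and their summed level was 4724 CPM in contralateral FOD-CCI replicate 1, 8990 CPM in SOD-CT replicate 1 and 15536 to 37453 CPM elsewhere. Replicate 1 of FOD-CT, FOD-CCI and contralateral FOD-CCI carried transcripts of spinal cord. The summed level of 7 markers of spinal inhibitory and dorsal horn neurons was 613 to 704 CPM there and at most 23.6 CPM in the other 17 libraries, and that of 7 spinal glia markers was 2354 to 3683 CPM against at most 67.2 CPM. Skeletal muscle transcripts were highest in SOD-CT replicate 1 and FOD-CT replicate 2 (summed levels of 10 markers 100343 and 22148 CPM). The sum was also 7694 CPM in contralateral FOD-CCI replicate 3, 5483 CPM in SOD-CT replicate 4, 1890 CPM in contralateral SOD-CCI replicate 2 and 1757 CPM in FOD-CT replicate 1, and at most 211 CPM in any injured left DRG. *Atf3* went against one label: it was 202 to 501 CPM in the other 6 injured DRG, 13.1 to 47.3 CPM in sham DRG and 3.27 CPM in the library labelled FOD-CCI replicate 1, the lowest of all 20. Results that rest on that library are therefore given with and without it, a choice made after its values were seen. Markers of sympathetic neurons, which also express *Npy*, *Gal* and *Vip*, were near 0, with *Dbh* at most 0.765 CPM and a summed level of 6 markers of at most 7.89 CPM.

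Galanin and neuropeptide Y, which act on receptors of sensory neurons and dorsal horn, were both far above most sham values after CCI. *Gal* was 205, 146 and 146 CPM in SOD-CCI, against 3.60, 58.5, 11.6 and 43.7 CPM in SOD-CT. In FOD-CCI it was 8.63, 89.1, 383 and 283 CPM, against 19.2, 54.3 and 12.6 CPM in FOD-CT. SOD groups did not overlap, and in FOD the library labelled FOD-CCI replicate 1 alone did not exceed the highest sham value, lying below all 3 shams. *Npy* was 395, 472 and 363 CPM in SOD-CCI, against 0, 49.5, 4.88 and 60.1 CPM in SOD-CT. In FOD-CCI it was 5.21, 242, 739 and 478 CPM, against 42.6, 32.6 and 1.51 CPM in FOD-CT. Again the SOD groups did not overlap, and the library labelled FOD-CCI replicate 1 lay within the sham range. SOD-CT replicate 1, with no *Npy* count and the muscle transcripts described above, had the fewest transcripts of 7 of the 8 genes among SOD-CT libraries, the exception being *Cck*. With bulk RNA, more cells expressing a gene and more RNA per cell cannot be told apart.

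*Vip* and *Adcyap1*, 2 related peptides that raise cAMP in their target cells, differed in how low they lay without ligation. *Vip* was 66.4, 45.4 and 36.5 CPM in SOD-CCI and 1.49, 26.6, 134 and 110 CPM in FOD-CCI. Sham values were 0, 22.9, 1.02 and 22.6 CPM in SOD-CT and 8.63, 23.5 and 4.00 CPM in FOD-CT. *Vip* in sham DRG thus ran from no count to nearly the level of FOD-CCI replicate 2. *Adcyap1* was 238, 229 and 216 CPM in SOD-CCI and 18.4, 96.3, 223 and 226 CPM in FOD-CCI. Sham values were 6.32, 54.5, 30.2 and 32.5 CPM in SOD-CT and 32.7, 39.9 and 38.1 CPM in FOD-CT. Apart from the muscle-bearing SOD-CT replicate 1, sham *Adcyap1* stayed within 30.2 to 54.5 CPM.

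*Vgf* was the one gene whose injured and sham groups did not overlap on either diet with every library included. It was 363, 304 and 299 CPM in SOD-CCI, against 3.60, 75.9, 37.4 and 25.8 CPM in SOD-CT. In FOD-CCI it was 136, 119, 334 and 234 CPM, and in FOD-CT 92.6, 43.3 and 31.7 CPM. The highest sham value belonged to the FOD-CT library with spinal cord transcripts, and *Vgf* was also high in the 2 other libraries of that kind (136 and 81.6 CPM). *Nts* was low throughout, at 11.3, 6.27 and 10.6 CPM in SOD-CCI and 4.17, 22.2, 14.2 and 12.7 CPM in FOD-CCI. Sham *Nts* was 0.702, 8.63, 3.22 and 11.8 CPM in SOD-CT and 21.3, 6.94 and 4.69 CPM in FOD-CT, so the groups overlapped on both diets.

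Cholecystokinin and its receptor CCKBR were both low, and both were higher in SOD-CCI than in any SOD-CT library. *Cck* was 7.38, 8.02 and 9.74 CPM in SOD-CCI, against 3.64, 4.04, 3.08 and 3.12 CPM in SOD-CT. In FOD-CCI *Cck* was 54, 9.47, 35.0 and 36.6 CPM, and in FOD-CT 52.4, 3.88 and 3.26 CPM. *Cck* is also expressed by spinal cord neurons, and the first value of each FOD group came from a library with spinal cord transcripts, whereas FOD-CCI replicates 3 and 4, at 35.0 and 36.6 CPM, had spinal neuron markers of only 5.13 and 2.78 CPM. *Cckbr* was 10.4, 10.2 and 7.32 CPM in SOD-CCI, against 0, 4.08, 0.474 and 2.87 CPM in SOD-CT. In FOD-CCI it was 3.42, 4.57, 17.7 and 13.3 CPM, and in FOD-CT 2.96, 3.53 and 0.239 CPM. Receptor and peptide therefore both lay above sham in FOD-CCI replicates 2, 3 and 4 except for the FOD-CT library with spinal cord transcripts, whose *Cck* was higher.

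**Figure D1:**
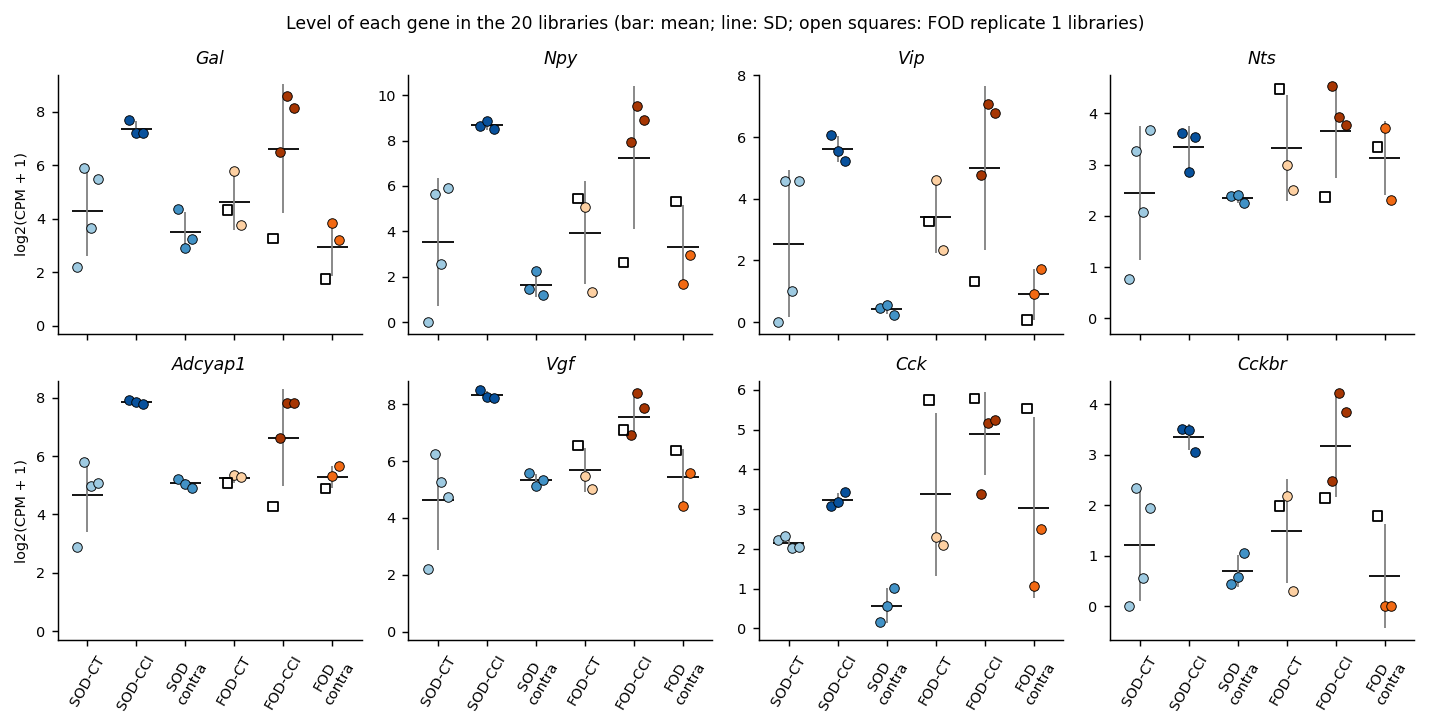
Level of each gene, as log2(CPM + 1), in the 20 libraries by group (contra: contralateral DRG of CCI rats), with group means (bars) and SD (lines) and with the FOD replicate 1 libraries as open squares. In SOD-CCI the 3 libraries lie above all SOD-CT libraries for 7 of the 8 genes, *Nts* being the exception, and the open square of FOD-CCI is the lowest of its group for all genes but *Vgf* and *Cck*.

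Counted over genes, the SOD-CCI libraries lay above every SOD-CT library for 7 of the 8 members, as they did for 11.8% of the 14484 genes tested. FOD-CCI lay above FOD-CT for 1 member, *Vgf* (background 2.05%). Without the library labelled FOD-CCI replicate 1 it did so for 6, all but *Nts* and *Cck* (background 8.32%).

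The test of CCI against sham over both diets used edgeR's quasi-likelihood model across 14484 genes with at least 10 counts in 13 of 14 left libraries. Calls required an adjusted p (Benjamini-Hochberg) no greater than 0.1 and a change of 1.2-fold or more. *Cckbr* did not pass that filter, and the other 7 did. No member was called higher, nor was any other gene (0% of all genes, edgeR), while 5 members, *Vgf*, *Adcyap1*, *Gal*, *Npy* and *Vip*, had an unadjusted p under 0.05 in the direction of CCI against 5.90% of all genes. Under DESeq2, 476 genes were called, among them *Adcyap1*, *Gal*, *Npy* and *Vgf*. The edgeR log2 fold change was 2.54 (SE 0.45) for *Vgf* and 2.39 (SE 0.47) for *Adcyap1*, with adjusted p = 0.101 for both in edgeR, just past the threshold. For *Gal* it was 2.58 (SE 0.72, edgeR adjusted p = 0.178) and for *Npy* 3.83 (SE 1.13, edgeR adjusted p = 0.194), the largest change with the largest error. *Vip* had 2.26 (SE 0.98), *Cck* 0.97 (SE 0.55) and *Nts* 0.46 (SE 0.51), with edgeR adjusted p of 0.398, 0.525 and 0.779. Through a wider filter of 10 counts in 3 libraries, *Cckbr* had 2.22 (SE 0.80, edgeR adjusted p = 0.314).

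Without the library labelled FOD-CCI replicate 1, the same edgeR test called *Adcyap1*, *Vgf*, *Gal* and *Npy* higher, against 2.34% of all genes. Their log2 fold changes were then 2.57 (SE 0.33, edgeR adjusted p = 0.00356), 2.62 (SE 0.47, edgeR adjusted p = 0.0139), 2.78 (SE 0.57, edgeR adjusted p = 0.0298) and 4.04 (SE 1.0, edgeR adjusted p = 0.0649). *Vip* (2.46, SE 0.86), *Cck* (0.81, SE 0.56) and *Nts* (0.61, SE 0.49) did not pass. On a linear scale these values are 5.94-fold (*Adcyap1*), 6.15-fold (*Vgf*), 6.85-fold (*Gal*) and 16.4-fold (*Npy*). The library was singled out for its low *Atf3*, a gene that varies with the members, and with it included none of the 4 was called. Other single libraries changed the calls too, with the share of all genes called in either direction in parentheses. *Adcyap1* and *Vgf* were called without SOD-CT replicate 1 (0.818%) or SOD-CT replicate 2 (0.633%). *Vgf* and *Cck* were called without FOD-CT replicate 1 (0.619%), and *Vgf* without FOD-CCI replicate 2 (0.213%). With all libraries, all 8 macrophage markers also had positive log2 fold changes (median 1.10 against −0.01 over all genes), and 4 had an unadjusted edgeR p under 0.05. Skeletal muscle markers moved the other way: the 4 of 10 that passed the filter had a median of −8.75, each with an unadjusted edgeR p under 0.05, and all 4 were called lower without that library. The part of macrophages in the values of the 8 members was not tested. With the 2 libraries highest in muscle left out, no member was called (0% of all genes).

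For single genes, an exact two-sided permutation test of log2(CPM + 1), with the injury labels exchanged within each diet over 1225 arrangements, gave p under 0.05 for 6 of the 8 genes with all libraries included, without adjustment over the 8. Exact p was 0.000816 for *Vgf*, the smallest the design allows, 0.00571 for *Cckbr*, 0.00735 for *Adcyap1*, 0.0122 for *Npy*, 0.0212 for *Gal* and 0.0465 for *Cck*. For *Vip* the exact p was 0.0563 and for *Nts* 0.274. That of *Cck* was the one that depended on the scale, at 0.0547 (exact) on the authors' FPKM. It was 0.0555 (exact) with totals scaled by TMM, edgeR's normalization, and 0.0343 (exact) with 0.1 in place of 1 added to the CPM.

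Within SOD, 4 of the 7 tested members, *Vgf*, *Adcyap1*, *Gal* and *Npy*, had an unadjusted edgeR p under 0.05 in the direction of CCI, against 5.05% of genes, and none was called (0%). *Vgf* had a log2 fold change of 3.14 (SE 0.63) and *Adcyap1* 2.82 (SE 0.64), both with edgeR adjusted p = 0.266. Both were called in SOD without the library labelled FOD-CCI replicate 1, against 0.321% of all genes in either direction. That library enters the fit through the shared estimate of spread. The paper lists *Adcyap1* among genes reduced in SOD-CCI relative to SOD-CT, the opposite direction to that of the deposited counts. Within FOD the same 4 had p under 0.05, against 3.20% of genes, with none called (0%), and *Vgf* had 1.94 (SE 0.64) and *Adcyap1* 1.96 (SE 0.67). Without the library labelled FOD-CCI replicate 1, those of FOD were 2.10 (SE 0.68) and 2.33 (SE 0.48).

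The contralateral DRG of the same rats offered a second reference, from the same animals. In the right DRG of SOD-CCI rats *Gal* was 19.7, 6.58 and 8.50 CPM, *Npy* 1.76, 3.70 and 1.27 CPM and *Vip* 0.359, 0.470 and 0.185 CPM. In those of FOD-CCI rats *Gal* was 2.39, 13.2 and 8.25 CPM, *Npy* 38.7, 2.20 and 6.79 CPM and *Vip* 0.0444, 0.872 and 2.33 CPM. The single *Npy* value above 10 CPM was that of the right DRG with spinal cord transcripts. *Adcyap1* (28.5 to 49.4 CPM) and *Vgf* (20.3 to 81.6 CPM) kept sizeable levels on the uninjured side. *Nts* ran from 3.75 to 12.2 CPM there, *Cck* from 0.108 to 4.62 CPM outside the spinal cord library (45.3 CPM), and *Cckbr* from 0 to 1.07 CPM outside it (2.44 CPM). In 2 of the FOD right DRG no *Cckbr* count was found, which allows at most 0.114 and 0.118 CPM.

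Left exceeded right in all 6 rats for 5 members, *Gal*, *Vip*, *Vgf*, *Cck* and *Cckbr*, as for 5.16% of the 14549 genes tested. In the 5 rats other than that of FOD-CCI replicate 1 it did so for all 8 (background 11.5%). Both libraries of the rat of FOD-CCI replicate 1 carried spinal cord transcripts. Its summed sensory neuron markers were 27138 CPM on the left and 4724 CPM on the right. The part of that difference in its left excess was not tested. The left to right ratio of *Npy* was 225, 128 and 285 in the SOD-CCI rats and 110 and 109 in FOD-CCI rats 2 and 3, but 0.135 in the rat of FOD-CCI replicate 1. That of *Gal* was 10.4, 22.2 and 17.2 in SOD-CCI and 3.60, 6.77 and 46.4 in FOD-CCI. *Vgf* was steadier, at 7.82, 8.89 and 7.62 in SOD-CCI and 1.67, 5.89 and 7.05 in FOD-CCI, and *Adcyap1* was 6.57, 7.16 and 7.37 against 0.645, 2.47 and 4.51. *Nts* had the smallest ratios, 1.46 to 2.81 in SOD-CCI.

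**Figure D2:**
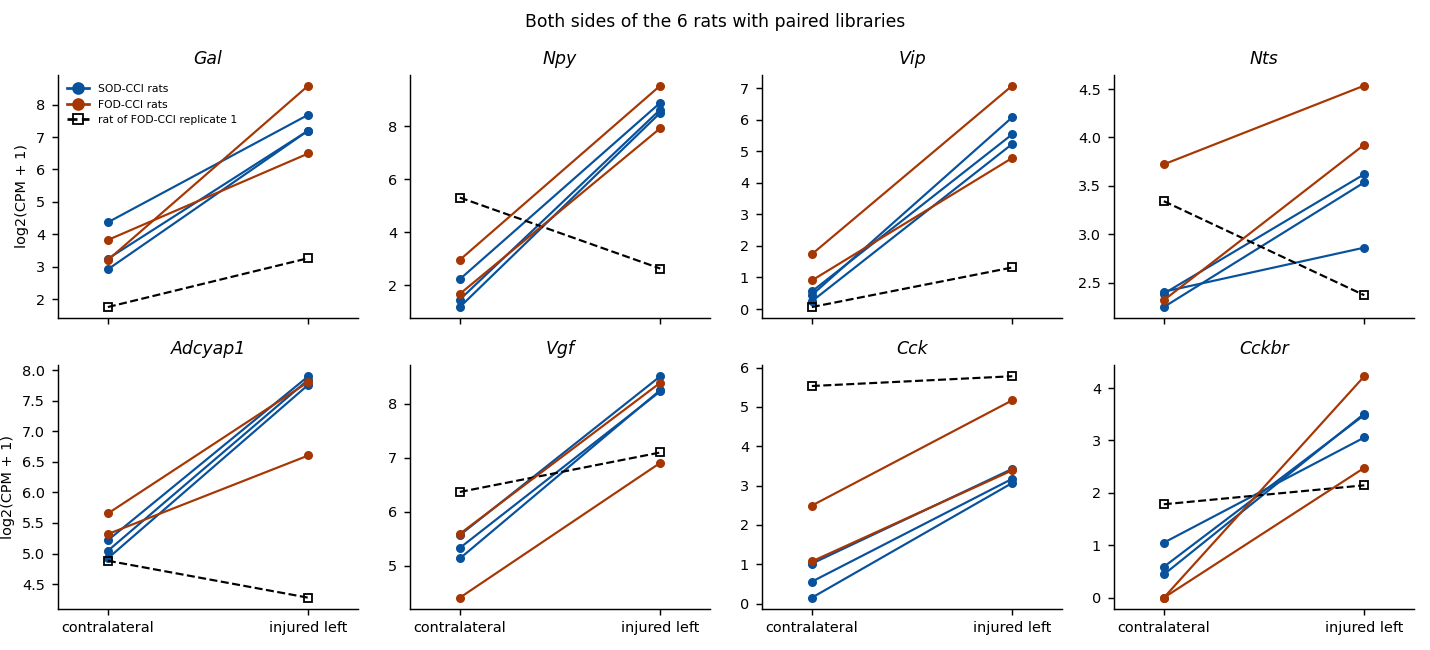
Level, as log2(CPM + 1), of each gene in the contralateral and the injured left DRG of the 6 rats with both, each line being 1 rat. All lines rise from right to left DRG except those of *Npy*, *Nts* and *Adcyap1* in the rat of FOD-CCI replicate 1 (dashed).

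With the rat as a block over 12 libraries, edgeR called 4 of the 6 members tested higher on the left, against 0.811% of genes. *Vgf* had a log2 fold change of 2.52 (SE 0.26, edgeR adjusted p = 0.00924), *Gal* of 3.66 (SE 0.43, edgeR adjusted p = 0.0159), *Cck* of 3.12 (SE 0.47, edgeR adjusted p = 0.0342) and *Adcyap1* of 1.88 (SE 0.31, edgeR adjusted p = 0.0451). *Npy* had the largest value, 6.34, with an SE of 1.40 and edgeR adjusted p = 0.122, and *Nts* had 0.84 (SE 0.38, edgeR adjusted p = 0.446). *Vip* and *Cckbr* had too few counts on the right for the filter. Through the wider filter, where 0.971% of genes were called higher, *Vip* was called with 6.27 (SE 0.25, edgeR adjusted p = 2.43e-06) and *Cckbr* was not (4.88, SE 1.17, edgeR adjusted p = 0.127). All 8 macrophage markers were higher on the left too (median 1.49, against 0.03 over all genes), with *C1qb* and *Aif1* called, and 6 were called without the rat of FOD-CCI replicate 1. Leaving out both libraries of 1 rat at a time gave 0 to 7 called members. In parentheses is the share of all genes called in either direction. Without the rat of SOD-CCI replicate 1, 2 or 3 the count was 0 (0.0542%), 1 (0.0747%) and 2 (0.0752%), respectively. Without the rat of FOD-CCI replicate 1, 2 or 3 the count was 7 (7.64%), 3 (0.653%) and 2 (0.270%), respectively.

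Without the rat of FOD-CCI replicate 1, all 7 members that passed the filter were called higher, against 4.32% of genes. *Npy* then had a log2 fold change of 7.17 (SE 0.25, edgeR adjusted p = 1.75e-06) and *Vip* of 6.28 (SE 0.26, edgeR adjusted p = 4.21e-06), and *Nts* passed with 1.22 (SE 0.28, edgeR adjusted p = 0.0401). The exact sign-flip test over 6 rats gave p = 0.0312, the smallest it allows, for *Gal*, *Vip*, *Vgf*, *Cck* and *Cckbr*, 0.0625 for *Npy* and *Adcyap1* and 0.125 for *Nts*. The smallest value needs the same sign in all 6 rats, that of FOD-CCI replicate 1 included.

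By diet, edgeR called *Vgf*, *Gal* and *Adcyap1* in SOD-CCI rats (log2 fold changes 2.97, 3.93 and 2.76), against 0.117% of genes called higher. With 1 rat left out, the share of all genes called in either direction is given in parentheses. In SOD-CCI rats edgeR called none without the rat of SOD-CCI replicate 1 or 2 (0%). Without that of SOD-CCI replicate 3 it called *Vip* alone (0.0137%). Without that of FOD-CCI replicate 1, 2 or 3 it called 6 members (3.14%), *Vgf* alone (0.0875%) and 4 members (0.371%), respectively. In FOD-CCI rats edgeR called none of the members with all libraries (background 0.0137%), and 6 without the rat of FOD-CCI replicate 1 (0.914%). It called *Vip* alone without the rat of SOD-CCI replicate 3 (0.0137%).

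**Figure D3:**
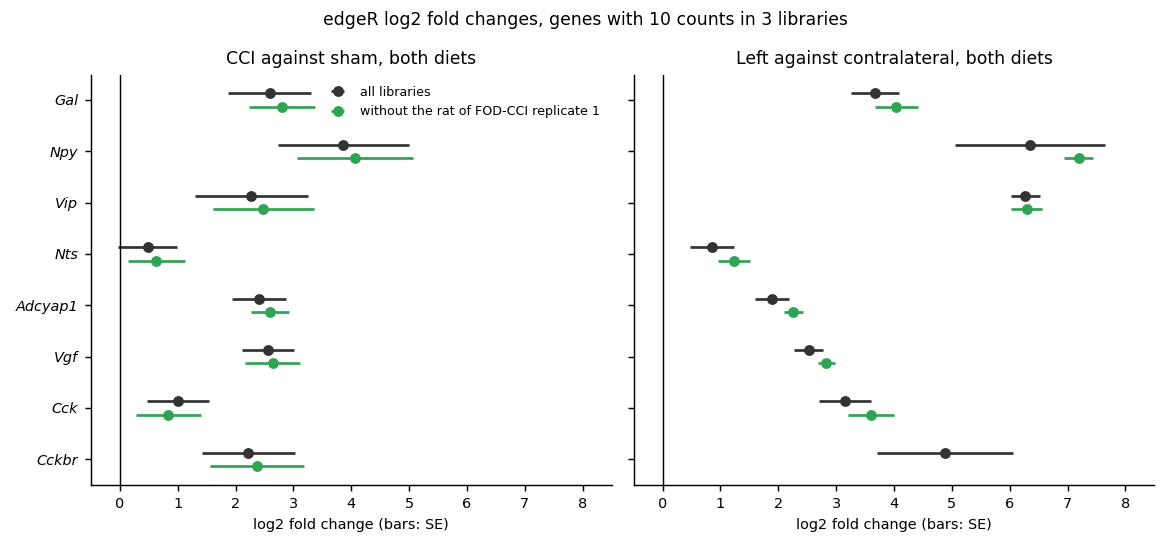
Log2 fold changes with SE from edgeR for CCI against sham (left) and left against contralateral (right) over both diets, through the filter of 10 counts in 3 libraries, with all libraries (black) and without the rat of FOD-CCI replicate 1 (green). All points lie right of 0, *Nts* lies nearest to it, and the black point of the side contrast lies below that of the sham contrast for *Adcyap1* and *Vgf* and above it for the other 6 genes, a difference that was not tested since both contrasts share the injured libraries; the green *Cckbr* value of the side contrast is not drawn because 2 right DRG had no count.

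The sham DRG were not alike. *Atf3* was 46.5, 47.3 and 40.4 CPM in SOD-CT replicates 2 and 4 and FOD-CT replicate 2, against 13.3, 13.1, 21.8 and 14.2 CPM in the other 4 and 5.96 to 15.0 CPM in the contralateral DRG. *Gal* in those 3 libraries was 58.5, 43.7 and 54.3 CPM, above the 3.60 to 19.2 CPM of the other shams and the 2.39 to 19.7 CPM of the contralateral DRG. *Vip* was 22.6 to 23.5 CPM in them, against at most 8.63 CPM in the other shams and 2.33 CPM in any contralateral DRG. *Npy* (32.6 to 60.1 CPM) and *Cckbr* (2.87 to 4.08 CPM) were also high in them, though the sham and the contralateral libraries with spinal cord transcripts had comparable *Npy* (42.6 and 38.7 CPM). *Cckbr* in FOD-CT replicate 1 (2.96 CPM) lay within the range of these 3. *Adcyap1* and *Vgf* did not separate these libraries from the other shams. The split is described from the values, no test was made on it, and a cause was not tested.

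Contralateral DRG compared with sham over both diets had no called member among the 6 tested (adjusted p = 1.00 for each in edgeR), with 425 of 14007 genes at an unadjusted p under 0.05 and none called by DESeq2. Among them *Gal* was the one with an unadjusted edgeR p under 0.05, at −1.61 (SE 0.61), against 2.36% of genes in that direction. Through the wider filter *Vip* had the largest difference of the 8, −4.28 (SE 1.19, edgeR adjusted p = 1.00), with an unadjusted p under 0.05. *Npy* had −2.20 (SE 1.08), whereas *Adcyap1* (0.08, SE 0.30) and *Vgf* (0.02, SE 0.46) had values near 0.

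**Figure D4:**
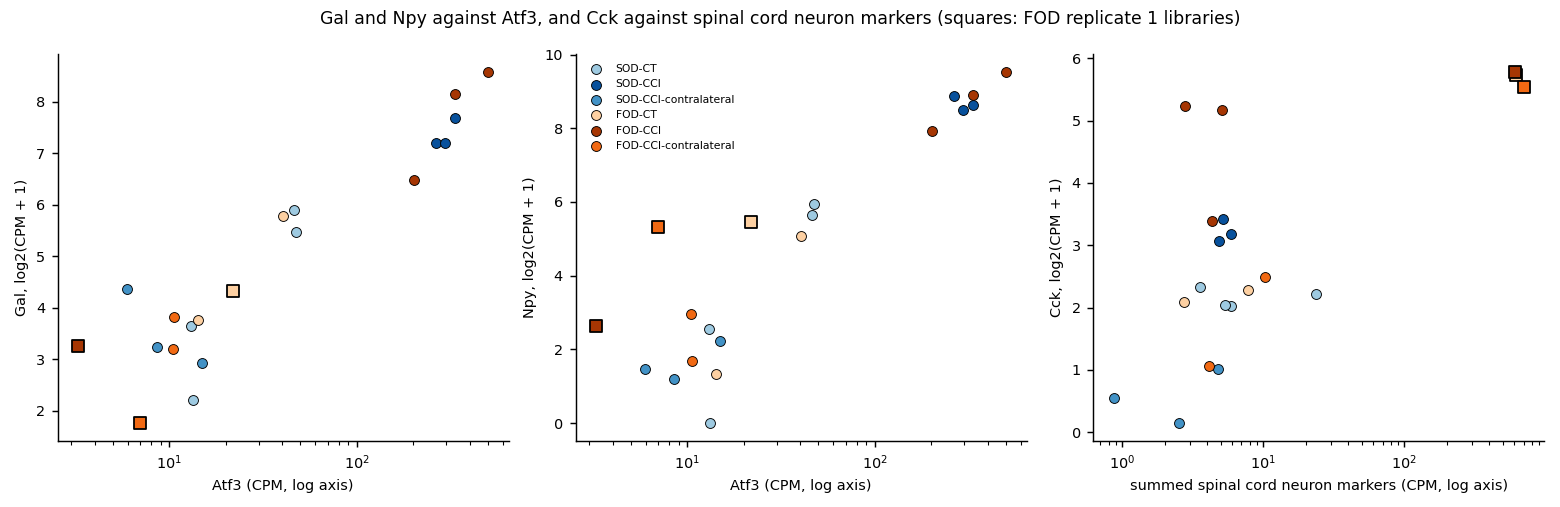
*Gal* (left) and *Npy* (middle), as log2(CPM + 1), against *Atf3* in CPM, and *Cck* (right) against the summed level of 7 spinal cord neuron markers in CPM, for the 20 libraries, with the FOD replicate 1 libraries as squares. The library labelled FOD-CCI replicate 1 has the lowest *Atf3* (3.27 CPM), and the 3 squares have *Cck* of 45.3 to 54 CPM at marker sums of 613 to 704 CPM.

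Of the members, *Cck* alone differed by diet in a test that called it, DESeq2 in the contralateral DRG. The diet by injury interaction in edgeR had no called member and none with an unadjusted p under 0.05, where 5.01% of genes had one, and values ran from −1.20 (SE 0.85) for *Vgf* to 0.43 (SE 1.87) for *Vip*. DESeq2 called 42 genes there and no member. In FOD-CCI against SOD-CCI only *Cck* had an unadjusted p under 0.05, at 2.07 (SE 0.81, edgeR adjusted p = 0.859), against 3.87% of genes higher. *Cck* was also the one in FOD-CT against SOD-CT, at 2.24 (SE 0.78, edgeR adjusted p = 0.965), against 1.77%, and in the contralateral DRG, at 4.95 (SE 1.41, edgeR adjusted p = 0.704), against 4.32%, where DESeq2 called it. Each FOD group had 1 library with spinal cord transcripts and *Cck* of 45.3 CPM or more, and the part of that tissue in the diet contrasts was not tested beyond leaving it out. Without FOD-CT replicate 1 the *Cck* difference between sham groups was −0.09, and without contralateral FOD-CCI replicate 1 that between contralateral groups was 2.46 (edgeR adjusted p = 0.948). Without the library labelled FOD-CCI replicate 1 it was 1.75 (SE 0.84, edgeR adjusted p = 0.976) between FOD-CCI and SOD-CCI. The left-right difference was smaller in FOD than in SOD rats for all 6 members that passed the main filter (for *Gal* and *Nts* it was larger without the rat of FOD-CCI replicate 1), of which *Adcyap1* alone had an unadjusted p under 0.05 (−1.76, SE 0.60, edgeR adjusted p = 0.997), against 2.11% of genes lower. Through the wider filter *Vip* (−1.75, SE 0.46) and *Cck* (−2.01, SE 0.86) also had an unadjusted edgeR p under 0.05, while *Cckbr* went the other way (1.94, SE 2.29), and none was called. Without the rat of FOD-CCI replicate 1 *Adcyap1* had −1.02 (SE 0.30, edgeR adjusted p = 0.999).

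Levels of different genes can be set side by side only per transcript length, on the authors' FPKM. In SOD-CCI the mean FPKM was 677 ± 80.8 (SD, n = 3) for *Npy*, 223 ± 53.9 for *Gal*, 169 ± 12.8 for *Adcyap1*, 115 ± 16.7 for *Vgf*, 31.1 ± 10.7 for *Vip*, 11.2 ± 1.5 for *Cck*, 11.1 ± 3.48 for *Nts* and 4.09 ± 0.814 for *Cckbr*. *Cck* and *Nts* did not differ beyond their spread, and the lowest *Gal* library (190 FPKM) lay just above the highest *Adcyap1* library (184 FPKM). In the right DRG of the same rats the order was another one. *Adcyap1* had the highest mean there, 25.2 ± 3.51 FPKM, followed by *Gal* (16.4 ± 10.5) and *Vgf* (14.9 ± 2.63). *Gal* overlapped both, with 28.5 FPKM in its highest library against 22.0 FPKM in the lowest of *Adcyap1*. *Nts* (5.02 ± 0.496) and *Npy* (3.88 ± 2.22) overlapped too, and *Cck* (0.728 ± 0.613), *Cckbr* (0.290 ± 0.160) and *Vip* (0.221 ± 0.0963) were lowest.

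Of 15 listed receptor genes 14 were in the table and 9 passed the filter, and none was called in CCI against sham (median log2 fold change 0.11, against −0.01 over all genes, edgeR). *Npy2r*, an inhibitory NPY receptor on sensory terminals, was 13.5 to 20.0 CPM in SOD-CCI and 12.2 to 15.2 CPM in FOD-CCI replicates 2 to 4, against 0 to 8.21 CPM in sham. Its log2 fold change was 1.26 (SE 0.59, edgeR adjusted p = 0.440), and left against contralateral it was called without the rat of FOD-CCI replicate 1 (0.97, SE 0.23, edgeR adjusted p = 0.0449) and not with it (0.86, SE 0.23, edgeR adjusted p = 0.192). *Npy1r*, another NPY receptor, had 0.16 (SE 0.22). The galanin receptor *Galr1* averaged 2.90 CPM in SOD-CCI and 3.76 CPM in sham SOD rats, and the VIP receptor *Vipr1* averaged at most 0.34 CPM in any group; neither passed the filter with all libraries. *Cckar*, the other cholecystokinin receptor, had 0.90 (SE 0.53). *Adcyap1r1* and *Ntsr2*, receptors for PACAP and neurotensin, were 84.7 and 98.0 CPM in the library labelled FOD-CCI replicate 1 and averaged 3.79 and 6.50 CPM in SOD-CCI. They were higher still in the other libraries with spinal cord transcripts. The values there were 153 and 116 CPM in FOD-CT replicate 1 and 170 and 144 CPM in contralateral FOD-CCI replicate 1.

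Of 15 genes for peptide processing and dense core granules, all tested, none was called in CCI against sham, and the median log2 fold change was −0.09. *Ptprn*, a dense core vesicle membrane protein, had 0.92 (SE 0.28, edgeR adjusted p = 0.217), and *Cadps2*, a factor for vesicle release, had −0.53 (SE 0.15, edgeR adjusted p = 0.178). Without the library labelled FOD-CCI replicate 1, *Chga* was called lower against sham (−0.93, SE 0.21, edgeR adjusted p = 0.0479). Left against contralateral without that rat, *Chga*, *Pcsk2* and *Cadps2* were called lower, at −0.87 (SE 0.16), −0.59 (SE 0.17) and −0.59 (SE 0.16) with edgeR adjusted p of 0.016, 0.0848 and 0.0752. *Chga* encodes a granin and *Pcsk2* a proprotein convertase. *Pcsk1*, the other neuronal convertase, had 0.56 (SE 0.24, edgeR adjusted p = 0.286) against sham without that library.

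Among 7 peptide genes that sensory neurons express without injury, 6 passed the filter, none was called in CCI against sham, and the median was −0.23. *Calca* (CGRP) had 0.30 (SE 0.30), *Tac1* (substance P) 0.50 (SE 0.30), *Sst* (somatostatin) −0.43 (SE 0.39) and *Nmb* (neuromedin B) −0.92 (SE 0.34, edgeR adjusted p = 0.329). *Nmb* was called lower on the left without the rat of FOD-CCI replicate 1. Of 9 relatives of the members, such as *Galp*, *Pyy* and *Gast*, none passed the filter, and none averaged above 2.55 CPM in any group.

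Of 10 nerve injury markers, 9 were tested in CCI against sham, all 9 had positive log2 fold changes (median 1.76) and 8 an unadjusted edgeR p under 0.05, where 5.90% of all genes had one in that direction. On the left against the contralateral side 7 of 8 tested were called higher (median 2.06), against 0.811% of all genes, among them *Atf3* with 4.19 (SE 0.83, edgeR adjusted p = 0.0884) and *Gap43*, a growth cone protein, with 1.58 (SE 0.25, edgeR adjusted p = 0.0391). Of 10 transcription factors that bind or regulate CRE and related letters, 3 were called higher on the left (*Jun*, *Atf3* and *Crem*), against the same 0.811%, with a median of 0.61. *Crem*, a cAMP-responsive factor, had 0.71 (SE 0.14, edgeR adjusted p = 0.0915), and the other 7 of the list did not pass. Both lists were made with earlier results of these data known and share *Atf3* and *Jun*.

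Over the 20 libraries, *Gal* and *Vip* were the most alike pair among the members (Pearson r = 0.958 of log2(CPM + 1)), and each was the other's nearest of 21444 genes. The next nearest to *Gal* were *Sdcbp2* (0.952) and *Gap43* (0.947), and to *Vip* *Tgm1* (0.955) and *Crisp1* (0.943). *Npy* was nearest to *Tslp* (0.951), *Ptprh* (0.943) and *Cckbr* (0.933). *Adcyap1* was nearest to *Flrt3* (0.969), *Gap43* (0.961) and *Azin2* (0.961), and *Vgf* to *Basp1* (0.955), *Gabra5* (0.953) and *Nsg1* (0.940). The nearest genes of *Cckbr* were *LOC102551701* (0.947) and *Sema6a* (0.945), followed by an unannotated transcript (0.937). *Nts* and *Cck* followed other genes, with *Snx20* (0.837), *Hcls1* (0.830) and *Hdac1* (0.823) nearest to *Nts* and *Ctbp2* (0.891), *Abi3* (0.886) and *Prdx6* (0.885) nearest to *Cck*. The r of *Cck* with *Gal* was 0.270. These values describe libraries that share the injury contrast, their depth and their admixed tissue.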

How the data were processed

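Bulk poly-A RNA sequencing of 20 rat DRG libraries was analysed. By the study's methods, the authors used fastp for trimming, HISAT2 for alignment and featureCounts for the count of reads per gene (1.5.0-p3, per the submitters' processing notes); genome build, strand setting and treatment of multiply mapped reads were not given in the sources used here. The deposited counts were used unchanged. The deposited FPKM, made by the authors from these counts and gene length, proved to be scaled by DESeq2-type size factors, not by totals, and served only for levels between genes and 1 alternative.

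CPM are counts divided by a library's total and multiplied by 1000000. Tests used edgeR 4.0.16 in R 4.3.3 (TMM, genes with 10 counts or more in 90% or more of the libraries fitted). Sham and left CCI libraries entered 1 fit, left and right DRG of the 6 rats a fit with the rat as block, and sham and right DRG another fit. In the fit with the rat as block, same-numbered left and right libraries correlated in their deviations from group means at 0.13 to 0.42. DESeq2 1.42.0 was an alternative. The scripts were tested on simulated data. P-values measure the spread between rats. The 8 genes and all gene lists were chosen with earlier results of these data known. Named were the 8 members, list genes that were called or, up to 4 a list, had the largest change, and the 3 genes most correlated with each member; other list genes with values (*Npy1r*, *Galr1*, *Vipr1*, *Adcyap1r1*, *Ntsr2*, *Pcsk1*, *Gap43*) were chosen after their values were seen.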

Additional observations from a re-analysis of the deposited data

How the results depend on the processing

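Each count of called members is followed by the share of all genes called in either direction under the same setting. For CCI against sham over both diets, 0 members were called with all libraries (0%), 4 under DESeq2 (3.29%), 2 with RLE normalization (0.166%), 2 without a filter (0.795%), 4 without the 3 libraries with spinal cord transcripts (3.12%) and 6 when the 2 libraries highest in muscle were left out as well (3.67%), an alternative chosen after seeing the data. Leaving out 1 library at a time gave 0 to 4 (0 to 3.54%). For SOD-CCI against SOD-CT the count went from 0 to 2 under DESeq2 (4.10%), to 2 without the spinal cord libraries (0.592%) and to 3 without those and the muscle libraries (1.04%), and was 0 to 2 with single libraries left out (0 to 0.321%). Left against contralateral over both diets, 4 members were called (0.962%), 7 without a filter (1.66%) and 7 without the spinal cord libraries (7.64%), with a range of 0 to 7 when 1 rat was left out (0.0542 to 7.64%). In SOD-CCI rats the 3 called members became 5 under DESeq2 (3.24%), 1 with RLE normalization (0.0962%) and 5 with the wider filter (0.322%). The count was 6 with no filter (0.801%), 6 without the spinal cord libraries (3.14%) and 0 to 6 with 1 rat left out (0 to 3.14%). In FOD-CCI rats the 0 called became 4 under DESeq2 (1.81%), 1 with the wider filter (0.0503%) and 3 with none (0.222%). The count was 6 without the spinal cord libraries (0.914%) and 0 to 6 with 1 rat left out (0 to 0.914%). In the contralateral diet comparison DESeq2 called 1 (0.414%). The exact test of CCI against sham gave 8 genes with p under 0.05 without the spinal cord libraries and 5 to 7 with single libraries left out, against 6; that of left against contralateral gave 0 against 5 once any rat or the spinal cord libraries were left out, since 5 rats cannot reach p below 0.0625.

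A replicate block on the label numbers, tried as an alternative for sham and CCI (different rats), left 0 members called (0%). Same-numbered FOD-CT and FOD-CCI libraries correlated in their deviations (0.18 to 0.42) and SOD ones hardly (−0.06 to 0.079). Without the block on the rat (no replicate block), 2 members were called on the left over both diets (0.0687%) and 0 in SOD-CCI rats (0%).

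Of 952 log2 fold changes of single genes under an alternative (all 8 genes for CCI against sham and left against right, and 14 printed values of the diet and contralateral comparisons), 24 changed sign, none of a called value. For *Nts* in FOD this was −0.01 for CCI against sham without FOD-CCI replicate 2 (up to 1.17 with other libraries left out) and −0.08 for left against right without the rat of FOD-CCI replicate 3 (up to 1.34). *Cck* between sham diets ran from −0.09 without FOD-CT replicate 1 to 2.74, and was −0.09 without the spinal cord libraries and −0.08 without those and the muscle libraries. In the diet by injury interaction *Vgf* became 0.12 without the spinal cord and muscle libraries, and *Vip* became −4.02 with the replicate block and ran from −0.15 to 1.5 with single libraries left out. *Cckbr* in the side by diet comparison was −0.79 to −0.07 without single FOD rats. In contralateral DRG against sham, *Adcyap1* ran from −0.07 to 0.26 and *Vgf* from −0.23 to 0.34 with single libraries left out. There, *Adcyap1* was −0.01 and *Vgf* −0.21 without the muscle libraries, and *Vgf* was −0.05 with the replicate block and −0.00 without the spinal cord and muscle libraries. Counts limit *Cckbr* and *Vip* in uninjured DRG, where several libraries held 0 to 15 reads.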
